A study of Mus musculus with 2 samples.

Results

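Mitochondrial ribosomal protein genes encode the proteins of the ribosome inside mitochondria. They were taken as every non-control probe of the array whose gene name in the scanner files was Mrpl or Mrps followed by a digit, with the brightest probe standing for its gene. This gave 78 genes out of 36870 gene names on the array, 29 named for the small subunit (Mrps) and 49 for the large subunit (Mrpl), measured by 122 probes. The RNA came from epithelial cells of the submandibular gland, a major salivary gland, of female C57BL/6 mice (C57BL/6N per the methods). The cells had been selected with magnetic beads against the epithelial surface protein EpCAM. The young group was 1 array from an age of 9 weeks and the aged group 1 array from an age of 24 months, with 1 mouse each per the design text. The labels name no transgene or treatment for either mouse. Per the methods, young mice came from a commercial breeder and aged mice from the facility of the institute, so that age and origin cannot be told apart. With 1 array per age there was no spread between mice, no test and no p-value, and each value below compares these arrays only.

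The mitochondrial ribosome translates the few messages encoded by mitochondrial DNA, which specify core subunits of the respiratory chain and of ATP synthase. Its RNAs come from mitochondrial DNA, whereas all its proteins are encoded in the nucleus, made by cytosolic ribosomes and imported. Part of the proteins have counterparts in the bacterial ribosome, and the others are found only in mitochondria. Salivary epithelium is a secretory tissue in which ducts in particular are rich in mitochondria.

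Levels are given as the processed fluorescence signal of the probe, and differences as aged minus young on the log2 scale after each signal was divided by its own 75th percentile, 256 for the young and 198 for the aged sample. A probe was kept when the scanner software marked it as well above background on at least 1 array. This held for 77 of the 78 genes and 109 of the 122 probes, and all 77 genes were well above background on both arrays. The exception was Mrpl35, a large subunit protein with a bacterial counterpart, whose probe read 8.36 in the young and 8.71 in the aged sample, not well above background on either. The error model of the scanner software gave a median error of 0.20 for the difference of a member. Probes printed several times scattered less, with a median SD of the difference of 0.091 over 39 repeated probes at the level of the members. Both errors cover the spots of the array and not the animals.

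Most mitochondrial ribosomal protein genes stood slightly higher on the aged than on the young array, and by similar amounts. Their median difference was 0.33, with quartiles of 0.22 and 0.47, beside a median of 0.09 with quartiles of -0.17 and 0.34 over the 18693 genes measured on both arrays. The difference was above 0 for 73 of the 77 genes (94.8%), beside a background of 59.9% of the genes measured on both arrays and 55.4% of all 21284 kept genes. It exceeded the upper quartile of all genes for 37 members (48.1%), beside 25% and 24.2%. No member was at least 2-fold higher, beside 1.51% and 3.05%, and 1 member, Mrpl50, was at least 2-fold lower, beside 3.04% and 7.91%. The difference was larger than its model error, 0.20 to 0.21 for every member, for 61 members, 60 of them higher and 1 lower on the aged array. No such count was taken over all genes, and this one rests on the scaling, as described below.

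The shift was narrow as well as small. The interquartile range of the members was 0.25, beside 0.51 for all genes measured on both arrays, and 67 of the 77 members lay between 0.1 and 0.6. The difference of 62 members lay within its model error of the median of the members. Such counts were not taken over all genes, so only the interquartile ranges can be compared. Signal level is part of this comparison, since dim probes scatter more, and the median young signal of the members lay 2.59 above the 75th percentile on the log2 scale. The 4029 genes whose mean level fell in the interquartile range of the members' levels had a median of 0.15 and 69.4% of values above 0. Their quartiles were -0.05 and 0.34, an interquartile range of 0.39.

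**Figure D1:**
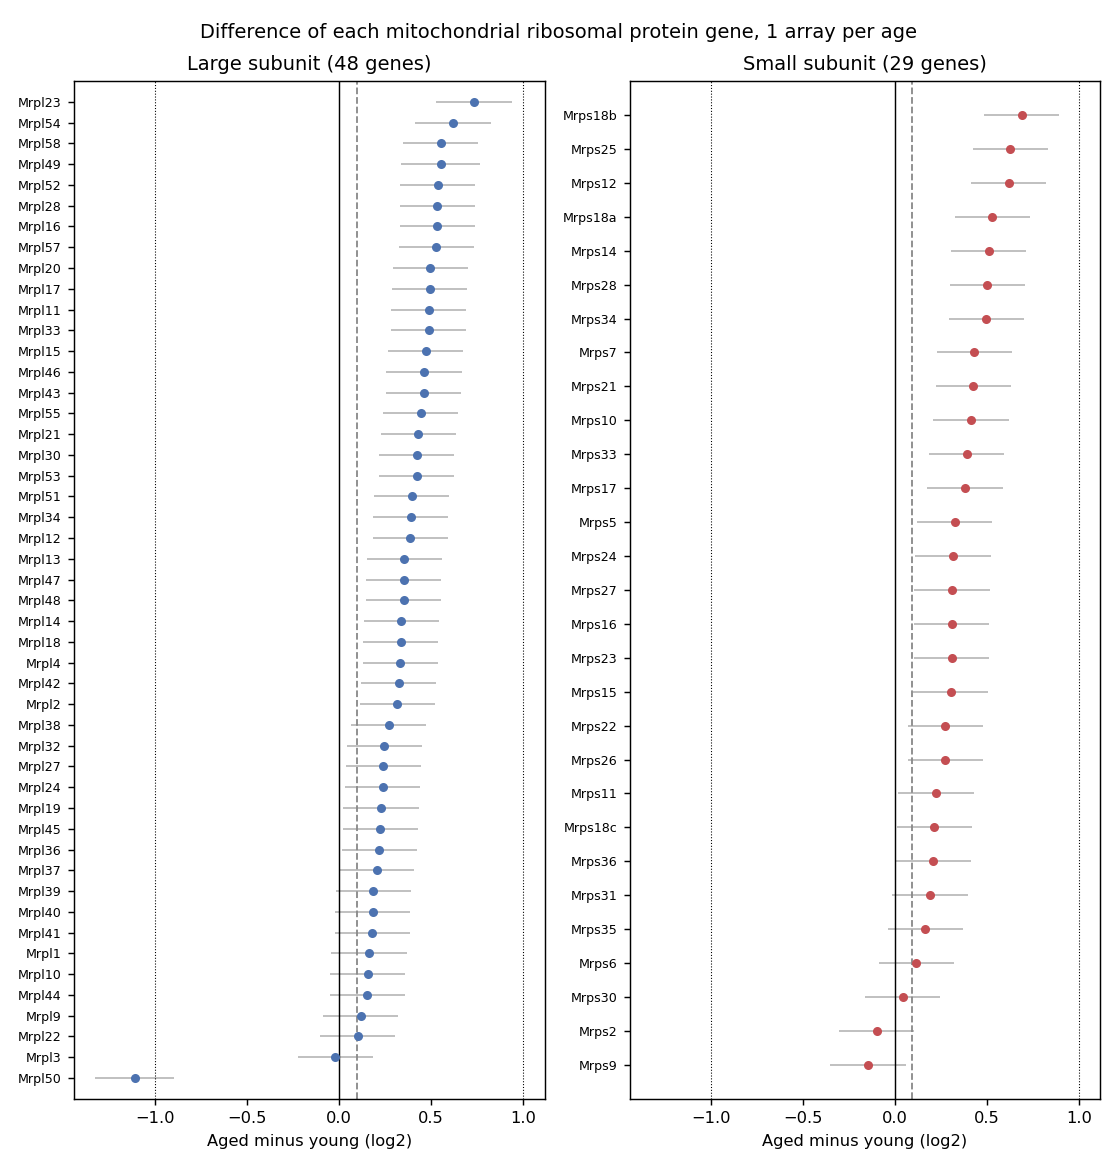
Difference of each kept mitochondrial ribosomal protein gene between the aged and the young array (log2, x axis), with the 48 large subunit genes on the left and the 29 small subunit genes on the right. Points are single differences from 1 array per age, bars the model error of the scanner software, the dashed line the median of all genes (0.09) and dotted lines a 2-fold difference; Mrpl50 at -1.11 is the 1 gene past a dotted line.

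The sign of such small differences rests on the scaling. Before scaling, the signal of 43 members was lower and that of 34 higher on the aged array, with a median ratio of aged to young of 0.974. The 75th percentile of the young array was higher by 0.37 on the log2 scale, and dividing by it raises every difference by that amount. The median of the members stayed above 0 under all 14 alternatives computed, from 0.08 with the spike-in controls to 0.51 with each array centred on its median. Only 6 of these changed the scaling or the background correction. The other 8 kept a 75th percentile scaling, gave 0.33 or 0.34 and say little about the sign. Under all 14 the median of the members also stayed above the median of all genes, by 0.14 to 0.26. Of the single members, 45 were above 0 and 1, Mrpl50, below 0 under every scaling, while 31 changed sign. Several scalings move every gene by the same amount, but quantile normalization and loess do not. Nearness to 0 alone therefore did not decide the sign. Mrpl14 at 0.34 changed sign, while Mrpl38 at 0.27 stayed above 0 (both named after their values were seen).

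Alternative scalings also shifted all genes together. The median of all genes measured on both arrays was 0.27 with each array centred on its median, -0.02 with the percentile taken only from probes that cleared background in both samples, 0.03 after quantile normalization, -0.05 after loess, -0.16 with the spike-in controls and 0.10 after normexp background correction. Relative to these, the members stood 0.24 higher under the scalings by 1 constant per array and 0.14 higher after quantile normalization, loess or normexp. The number of members above the upper quartile of all genes was 37 under the first kind, 21 after quantile normalization or loess and 34 after normexp. The share was thus 27.3% of the members after quantile normalization or loess, near the 25% that the quartile sets for all genes.

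**Figure D2:**
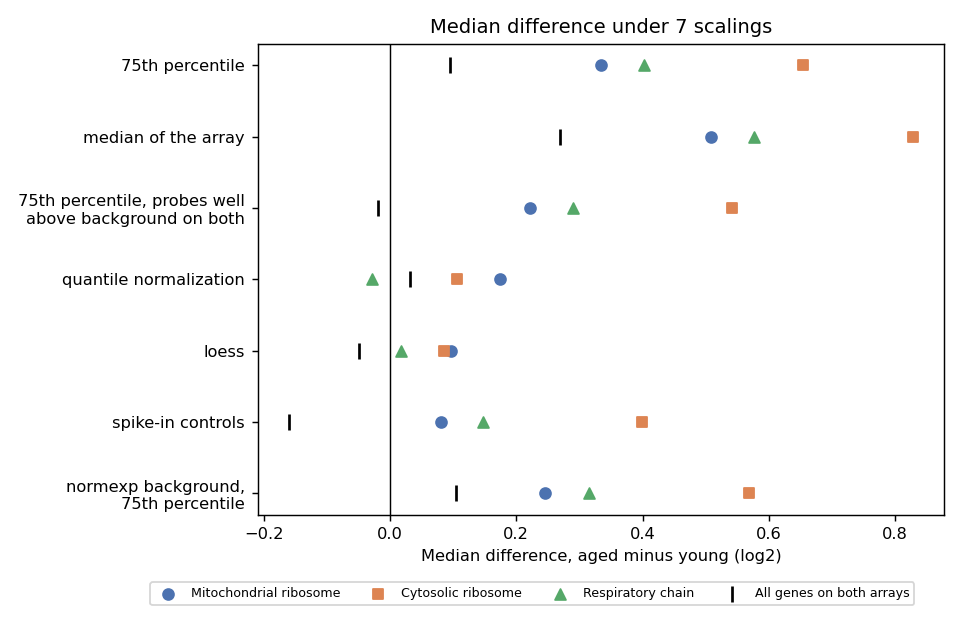
Median difference between the aged and the young array (log2, x axis) of the 77 mitochondrial ribosomal protein genes, the cytosolic ribosomal protein genes, the respiratory chain genes and all genes measured on both arrays, under 7 scalings (rows). The mitochondrial ribosome lies right of all genes in each row, from 0.08 with spike-in controls to 0.51 with the median of the array, while the order of the 3 gene lists changes after quantile normalization and loess.

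**Figure D3:**
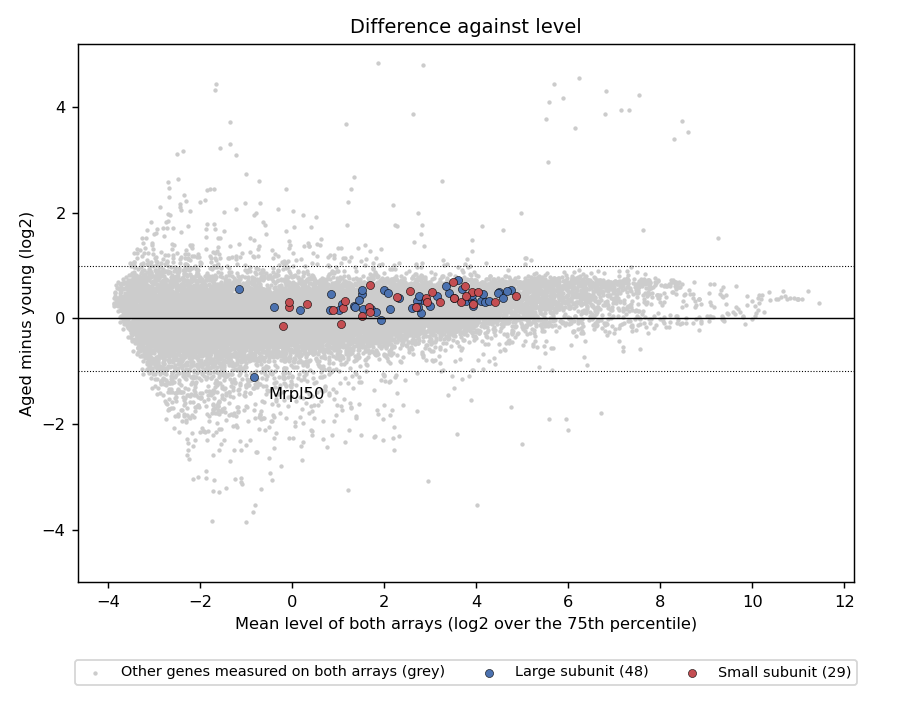
Difference between the aged and the young array (log2, y axis) against the mean level of both arrays (log2 over the 75th percentile, x axis) for the 18693 genes measured on both arrays (grey), with large subunit genes in blue and small subunit genes in red and dotted lines at a 2-fold difference. The members form a narrow band with a median of 0.33, and Mrpl50 at -1.11 lies apart below it.

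Small and large subunit genes had similar medians on these arrays. The 29 small subunit genes had a median difference of 0.31, with quartiles of 0.21 and 0.43 and 27 values above 0. The 48 kept large subunit genes had a median of 0.35, with quartiles of 0.22 and 0.47 and 46 values above 0. The median of the small subunit minus that of the large was -0.04, and the mean of the small minus that of the large was -0.0002. Under the 14 alternatives the difference of the medians lay between -0.04 and -0.002. Scalings by 1 constant per array cannot change it, and it was -0.002 after quantile normalization and -0.008 after loess. Sorting the proteins by their place in the structure rather than by symbol gave 0.31 for 26 small subunit and 0.35 for 50 large subunit genes. No interval for this difference can be given, since genes of 1 array are not replicates.

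Proteins with a bacterial counterpart and those found only in mitochondria were compared in the same way. The 47 kept genes with a bacterial counterpart had a median of 0.35, and the 30 without one a median of 0.31. Within the small subunit the medians were 0.35 for 18 genes with a counterpart and 0.27 for 11 without, and within the large subunit 0.35 for 29 and 0.35 for 19.

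Among the large subunit genes the highest difference was that of Mrpl23, whose protein has a bacterial relative at the exit of the tunnel through which the new chain leaves. Its signal was 2406 in the young and 3089 in the aged sample, a difference of 0.73 with a model error of 0.20. Mrpl54, found only in mitochondria, read 2111 and 2504, a difference of 0.62. Mrpl58, a peptidyl-tRNA hydrolase built into the ribosome that can free stalled chains, read 2749 and 3111, a difference of 0.55. Mrpl49 and Mrpl52 followed, both without a bacterial counterpart. The signal of Mrpl49 was 94.6 and 107, a difference of 0.55. That of Mrpl52 was 5715 and 6400, a difference of 0.54. All 5 were higher on the aged array before scaling too, and stayed above 0 under the 14 alternatives, with Mrpl23 between 0.43 and 0.91.

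The lowest large subunit genes apart from Mrpl50 were Mrpl3, Mrpl22, Mrpl9 and Mrpl44. Mrpl3, whose bacterial relative reaches towards the peptidyl transferase centre, read 989 in the young and 753 in the aged sample, a difference of -0.02. Mrpl22, whose relative lines the exit tunnel, read 1734 and 1436, a difference of 0.10. Mrpl9, another conserved protein, read 869 and 728, a difference of 0.12. Mrpl44, a mitochondrial protein with a ribonuclease III-like fold, read 489 and 420, a difference of 0.15. These 4 lay within their model error of 0, and each changed sign with the scaling, over -0.28 to 0.15 for Mrpl3, -0.15 to 0.27 for Mrpl22, -0.14 to 0.29 for Mrpl9 and -0.10 to 0.33 for Mrpl44.

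In the small subunit the highest difference was that of Mrps18b, 1 of 3 related genes of a family with a single bacterial member. Its signal was 2276 in the young and 2835 in the aged sample, a difference of 0.69. Mrps25, found only in mitochondria, read 664 and 791, a difference of 0.63. Mrps12, whose bacterial relative sits at the decoding centre, read 2782 and 3301, a difference of 0.62. Mrps18a and Mrps14 came next. Mrps18a read 1264 and 1408, a difference of 0.53. Mrps14, with a bacterial counterpart in the head of the subunit, read 1769 and 1946, a difference of 0.51. All 5 were higher before scaling and stayed above 0 under every alternative, with Mrps18b between 0.39 and 0.86.

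The lowest small subunit gene was Mrps9, whose bacterial relative touches the transfer RNA in the peptidyl site. It read 234 in the young and 163 in the aged sample, a difference of -0.15. Mrps2, another conserved protein, read 550 and 396, a difference of -0.10. Mrps30 read 720 and 572, a difference of 0.04. These values were within the model error of 0.20 to 0.21 of no difference. Mrps6, a conserved protein of the platform, read 791 and 662, a difference of 0.12. Mrps35, found only in mitochondria, read 451 and 390, a difference of 0.17. All 5 were lower before scaling, and each changed sign over the alternatives, with Mrps9 between -0.40 and 0.03 and Mrps35 between -0.09 and 0.34.

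For 3 genes the symbol and the place in the structure differ. The products of Mrps18a and Mrps30 sit in the large subunit, and that of Mrps36 belongs to the 2-oxoglutarate dehydrogenase complex, an enzyme of the citric acid cycle. Mrps36 read 761 in the young and 680 in the aged sample, a difference of 0.21. Its value lay at the lower quartile of the members, and it fell between -0.04 and 0.38 under the alternatives.

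Mrpl50 stood apart from all other members. It encodes a large subunit protein found only in mitochondria, and its signal was 213 ± 21.5 in the young and 76.1 ± 8.24 in the aged sample (model error of the spot, n = 1 array each). The difference was -1.11 with a model error of 0.21, 2.16-fold lower on the aged array, while the next lowest member of either subunit was at -0.15. Of all genes measured on both arrays 2.49% had a lower difference. The difference stayed below 0 under every alternative, between -1.37 and -0.72, and fell short of 2-fold after median centring and after normexp. Leaving the gene out lowered the SD over the members from 0.24 to 0.17. A single probe measured it, so that no other probe can be set beside this value. The probe is shown because the only 2-fold difference rests on it, together with the 100 bases before the annotated start of the gene. The probe lies on the minus strand at chr4:49527089-49527148 (mm9, per the scanner files), in 1 unbroken block of 60 bases, and reads without a stop codon in 2 of 3 frames. The upstream stretch lies on the minus strand at chr4:49521084-49521183 (RefSeq, GRCm38.p6), so that the coordinates of the pair are of different builds.
Mrpl50 array probe: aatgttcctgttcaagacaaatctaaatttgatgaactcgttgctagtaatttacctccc
Mrpl50 upstream stretch: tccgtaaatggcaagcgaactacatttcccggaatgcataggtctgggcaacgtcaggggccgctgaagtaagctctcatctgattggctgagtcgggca

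Where several probes measured a gene they mostly gave like differences. Of 26 members with several kept probes, 20 had probes within 0.3 of each other, and the median range was 0.15. Mrpl48, a large subunit protein found only in mitochondria, was the 1 gene with probes more than 1 apart. Its probes for the RefSeq transcript gave 0.35 and 0.29. Another, designed on an Ensembl transcript, read 65.1 in the young and 135 in the aged sample and gave 1.43. That probe makes the count of probes at least 2-fold higher 1 when every probe is counted on its own. For 6 members the kept probes had differences of opposite sign. The brightest probe of Mrps9 gave -0.15 and the other 0.19, those of Mrps2 -0.10 and 0.14, and those of Mrpl44 0.15 and -0.03. The other members of this kind were named after their values were seen, namely Mrpl1 (0.16 and -0.10), Mrps31 (0.19 and -0.14) and Mrpl13 (0.35 and -0.25, the dimmer probe not well above background in the aged sample).

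Since the probes of these genes lie on 17 chromosomes, the sequences before their start sites were compared for shared motifs. RefSeq windows (GRCm38.p6) from 250 bases before to 50 after the start were at hand for 69 of the 78 genes, 75 windows in all. The motifs were searched on both strands as exact letters. CCGGAAG, the core bound by ETS factors such as GABP, a regulator of nuclear genes for mitochondrial proteins, was in 26 member windows (34.7%), beside 8.86% of all 32851 windows and 15.3% of the 14116 windows of genes measured on both arrays. The YY1 motif was in 5 (6.67%), beside 0.633% and 1.27%. The palindromic NRF1 motif, spelled in capitals in the stretch of Mrpl9 below, was in 3 (4%), beside 0.971% and 1.79%, and a looser form, which allows any base at its central pair of positions and so includes it, was in 14 (18.7%), beside 6.23% and 11.2%.

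General promoter elements did not follow that pattern. CCAAT was in 40% of member windows, 37.4% of all windows and 37.2% of those of measured genes. TATAAA was in 6.67%, 13.6% and 8.61%. The median GC content was 58.7% in member windows and 59.3% in windows of measured genes, beside 52.7% in all windows, and the median number of CpG was 21, 18 and 7. A match is only a run of letters and shows no binding.

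The ETS letters lay close to the start site. Of the 31 matches in member windows, 28 (90.3%) began within 100 bases before the start or after it. The share was 73.0% in all windows and 74.8% in windows of genes measured on both arrays. The 11 small and 15 large subunit genes with a match had a median difference of 0.39, and 42 kept members with a window but no match one of 0.31. Whether these medians differ could not be tested with 1 array per age. The stretches below are the 100 bases before the start, with ETS and NRF1 matches in capitals and other motifs left in lower case. Mrpl43 and Mrpl53 are shown for their 2 ETS matches each and were chosen after their values were seen, Mrps18a and Mrpl3 as members with a match at the high and the low end of the differences, and Mrpl9 for a full NRF1 match. Mrpl43 is on the minus strand at chr19:45006443-45006542, with ETS letters at -56 to -50 and -12 to -6 counted from the start. Mrpl53 is on the plus strand at chr6:83109008-83109107, with matches at -59 to -53 and, as the reverse complement, at -16 to -10. Mrps18a is on the plus strand at chr17:46110904-46111003, with a match at -26 to -20, and Mrpl3 on the plus strand at chr9:105053168-105053267, with a match at -19 to -13. Mrpl9 is on the plus strand at chr3:94443236-94443335, with the NRF1 letters at -28 to -19. The stretch of Mrpl50 shown above holds none of the ETS, NRF1 and YY1 letters.
Mrpl43: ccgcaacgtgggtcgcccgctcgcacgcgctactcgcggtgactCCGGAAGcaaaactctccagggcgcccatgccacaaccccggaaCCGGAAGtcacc
Mrpl53: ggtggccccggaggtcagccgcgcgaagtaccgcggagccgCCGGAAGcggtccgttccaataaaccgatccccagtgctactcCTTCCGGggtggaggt
Mrps18a: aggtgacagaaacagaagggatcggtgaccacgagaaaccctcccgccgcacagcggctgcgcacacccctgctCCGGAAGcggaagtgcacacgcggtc
Mrpl3: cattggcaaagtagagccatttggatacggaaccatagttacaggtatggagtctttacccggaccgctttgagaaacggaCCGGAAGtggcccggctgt
Mrpl9: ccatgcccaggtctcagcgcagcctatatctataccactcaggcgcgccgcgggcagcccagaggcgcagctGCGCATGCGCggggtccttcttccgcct

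Many members share their promoter region with a neighbour transcribed the other way. A start site on the opposite strand within 1000 bases upstream was found for 26 of the 69 members with a window (37.7%), beside 12.3% of all genes and 17.96% of genes measured on both arrays. Of the partners, 25 were measured on both arrays, 18 had a difference above 0, and their median was 0.22. Over all genes measured on both arrays 59.9% were above 0 and the median was 0.09. The partners include Mrpl46 and Mrps11, which are members themselves and both above 0. The pair of Mrpl46 and Mrps11 joined members of different subunits, 42 bases apart, with differences of 0.46 (390 and 415) and 0.22 (227 and 204). Mrpl50 faced Zfp189 at 93 bases, whose difference was -0.21. Mrps12 faced Sars2, which charges mitochondrial serine transfer RNA (0.62 and 0.30). Mrpl49 faced Fau, which encodes a protein of the cytosolic ribosome (0.55 and 0.60). Other pairs differed in sign, among them Mrps18b with Ppp1r10 (0.69 and -0.60) and Mrpl51 with Ncapd2 (0.39 and -0.95). Apart from those of Mrps12, Mrps18b, Mrpl49 and Mrpl50, these pairs were named after their values were seen.

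Other genes of mitochondrial translation had smaller median differences on this scale. The 5 ribosomal proteins under other symbols had a median difference of 0.25, from 0.16 for Aurkaip1 to 0.54 for Chchd1, and all 5 were above 0 on this scale. The 18 translation factors had a median of 0.20 with 14 above 0 (77.8%), from -0.13 for the initiation factor Mtif2 to 0.52 for the elongation factor Guf1. The 28 assembly factors had a median of 0.23 with 24 above 0 (85.7%). Of all genes measured on both arrays 59.9% were above 0. The median reached 0.00003 for other symbols, -0.05 for translation factors and -0.02 for assembly factors under the lowest scaling.

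Among the assembly factors Mettl15, a methyltransferase of the small ribosomal RNA, was at least 2-fold lower, with 53.4 in the young and 20.1 in the aged sample and a difference of -1.04. That value ranged from -1.29 to -0.23 over the alternatives. Mpv17l2, a membrane protein needed for ribosome assembly, was the highest, with 1223 and 1702 and a difference of 0.85, or 0.59 to 1.02 over the alternatives. The 16 kept tRNA synthetases of 17 had a median of 0.03 with 9 above 0 (56.25%). All kept genes had a median of 0.06 with 55.4% above 0. The synthetases ran from Wars2, above background in the young sample alone and lower in the aged by a factor of at least 1.64, to Ears2 at 0.44. The median of the synthetases ranged from -0.22 to 0.20, so it had no fixed sign.

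The list of mitochondrial transcription and biogenesis genes lay lower than the members. Its 16 genes had a median difference of -0.13 with 7 above 0 (43.75%), beside 59.9% of genes measured on both arrays. The median ranged from -0.39 to 0.04 over the alternatives. Ppargc1a, a coactivator that drives mitochondrial biogenesis, read 1764 in the young and 633 in the aged sample, a difference of -1.11. A second probe of the gene read 519 and 157, a difference of -1.35, and the first stayed between -1.36 and -0.93 over the alternatives. The highest of the list was Tefm, the mitochondrial transcription elongation factor, at 0.50. Gabpa, which encodes the DNA-binding part of GABP and was named after its values were seen, gave -0.71 on its brightest probe (168 and 79.5) but 0.15 and 0.19 on others. No member of the mitochondrial ribosome apart from Mrpl50 had a difference as low as that of Ppargc1a.

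The cytosolic ribosome and the respiratory chain gave the nearest comparisons. The 84 kept of 87 cytosolic ribosomal protein genes had a median of 0.65, quartiles of 0.59 and 0.70 and an interquartile range of 0.11, higher and narrower than the 0.33 and 0.25 of the mitochondrial ribosome. The highest was Rps12 at 0.87. The lowest was Rpl3l, above background in the young sample alone and lower in the aged by a factor of at least 3.07. The 92 kept of 94 respiratory chain genes, assembly factors included, had a median of 0.40, quartiles of 0.30 and 0.49 and an interquartile range of 0.19. They ran from -0.31 for Cox7a1 to 1.53 for Cox6a2. Of these genes 3 were at least 2-fold higher, beside 1.51% of genes measured on both arrays. The probes of both lists were brighter than those of the members. Median young signals were 6.84 (cytosolic ribosome) and 4.89 (respiratory chain) above the 75th percentile on the log2 scale, which says nothing of the amount of one message against another. After quantile normalization, which gives both arrays the same distribution of signals, the medians were 0.17 for the mitochondrial ribosome, 0.11 for the cytosolic ribosome and -0.03 for the respiratory chain. After loess, which removes a trend of the difference with the signal, they were 0.10, 0.09 and 0.02. The order of the lists therefore depended on the scaling, and no test of their difference was possible with 1 array per age.

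**Figure D4:**
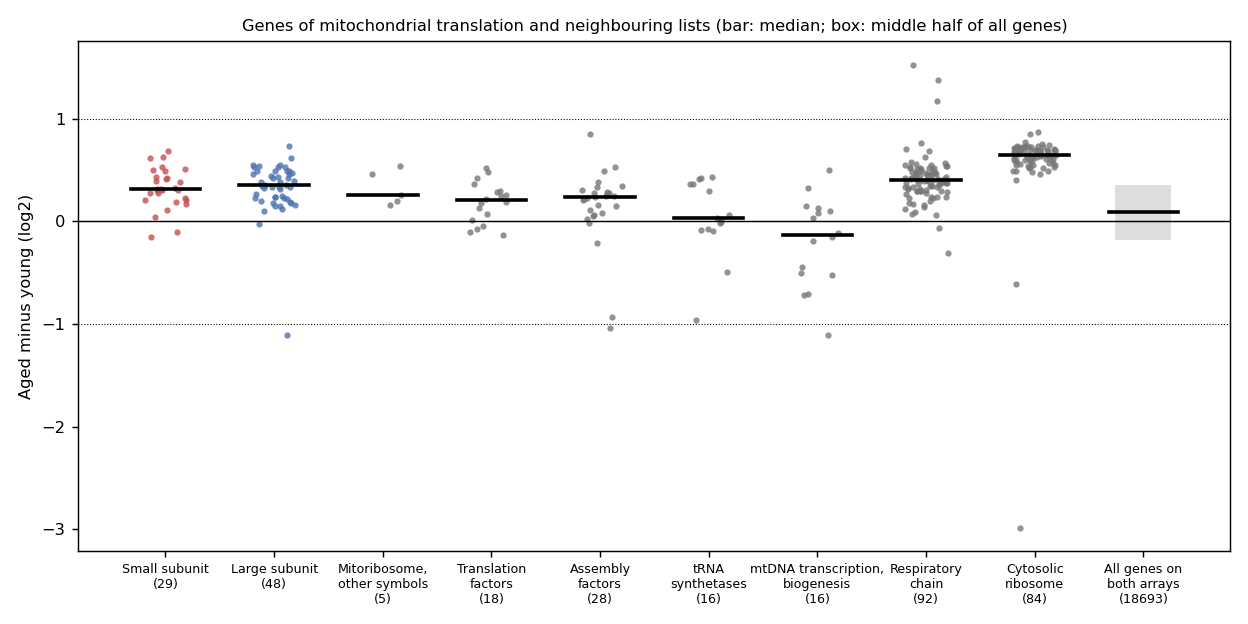
Differences between the aged and the young array (log2, y axis) of single genes (points, spread sideways for display) in the small and large subunit of the mitochondrial ribosome and in 7 other lists (x axis, number of kept genes in brackets), with the list median as a bar and the interquartile range of all genes as a box. Medians are 0.31 and 0.35 for the subunits, -0.13 for mitochondrial transcription and biogenesis and 0.65 for the cytosolic ribosome; the lowest point of the last is Rpl3l, measured on the young array only.

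Markers of the labelled epithelial cells and of other cells were both measured. Epcam read 1778 in the young and 1573 in the aged sample, and the epithelial keratins Krt8 and Krt18 were far above background on both. Krt19, a keratin of ducts, was dim, with 34.2 in the young sample and 12.4, not well above background, in the aged. Cldn4, a tight junction protein, read 567 and 299, a difference of -0.55. The 8 kept epithelial markers had a median difference of 0.05, or -0.42 to 0.22 over the alternatives. The 11 kept of 12 leukocyte markers had a median of -1.06 (-1.32 to -0.27 over the alternatives) with 2 above 0, and were not well above background for 1 marker in the young and 2 in the aged sample. Their summed level, in multiples of the 75th percentile, was 100 in the young and 83.6 in the aged sample. The 6 fibroblast markers had a median of -1.37 (summed 18.6 and 8.70), the 5 endothelial markers -0.56 (3.89 and 2.71), and the 6 cell cycle markers -2.14 (10.9 and 8.32), 3 of them not well above background in the aged sample. The last of these medians rests on aged signals not well above background. It was -0.27 over the 3 genes measured on both arrays, -0.56 after normexp and -1.41 with dim signals raised to the lowest signal well above background. Mki67, Top2a and Ccnb1 were well above background in the young sample alone. They were lower in the aged sample by factors of at least 24.8, 6.77 and 5.35. The 9 acinar markers ran from -1.79 for Smgc to 0.98 for Lpo, both named after their values were seen. Of the 9, 6 were above 0 (66.7%), beside 59.9% of genes measured on both arrays. Their median was 0.39, which turned to -0.44 after loess and was 0 after quantile normalization. The 8 duct markers had one of -0.03, or -0.43 to 0.14 over the alternatives. The summed level of the 77 members was 585 and 772. The part of cell makeup in the differences of the mitochondrial ribosome was not tested, and fewer cells of a type and less RNA per cell cannot be told apart in such a sample.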

How the data were processed

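Gene expression was measured on Agilent 8 x 60K mouse arrays hybridized with Cy3-labelled RNA, 1 array per age. The deposited scanner files, made by the authors with Feature Extraction 12.0.3.1 (coordinates on mm9), hold the processed intensity of each spot after background subtraction, with no scaling between arrays. The authors' deposited table holds the signal divided by 1 constant per array (229 and 176), after GeneSpring normalization to the 75th percentile.

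Control and outlier spots (90 and 93) were left out of the gene values, spots of 1 probe were averaged, and log2 of the processed intensity minus that of the array's 75th percentile over 59305 non-control spots was taken. The share of these spots well above background was 55.4% for the young and 50.8% for the aged sample, and none was saturated. The number of arrays limits the precision. A probe was kept if 1 array or both showed it well above background, and each gene was read from its brightest kept probe (mean log2 signal over both arrays). Where 1 array was not well above background, a lower limit of the fold was computed from the lowest signal well above background on that array. A 2-fold difference was the threshold, with no test. The members and lists were chosen with earlier results of these data known. Named were the members at least 2-fold different, the 5 highest and lowest of each subunit, dim members and members with discordant probes. Members whose symbol and place differ, and the extremes of each list other than the cell type markers, were named too.

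Gene names are those of the scanner files. All 78 symbols were in the RefSeq table, whose windows (GRCm38.p6) gave the promoters; 9 members had none and are not analysed there. The 14 alternatives covered scaling, background, dim and outlier spots, probe choice and subunit assignment. Software was R 4.3.3 (limma 3.58.1) and Python 3.11.15 (pandas 2.3.3, numpy 2.4.6), and the scripts were tested on simulated data.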

Additional observations from a re-analysis of the deposited data

How the results depend on the processing

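Scaling was the choice that moved the values most. The median difference of all members, of the small and of the large subunit (0.33, 0.31 and 0.35 as reported) was 0.51, 0.49 and 0.52 with each array centred on its median, 0.22, 0.20 and 0.24 with the percentile taken only from probes that cleared background in both samples, 0.17, 0.17 and 0.18 after quantile normalization, 0.096, 0.090 and 0.098 after loess, 0.080, 0.056 and 0.096 with the 8 spike-in probes, and 0.25, 0.23 and 0.27 after normexp. The median of the members minus that of all genes, 0.24 as reported, was 0.14 after quantile normalization, loess or normexp. The cause was not tested beyond the construction of these scalings. The count of members at least 2-fold lower was 0 with median centring and 0 with normexp, instead of 1, and that of members at least 2-fold higher was 1 when every kept probe was counted on its own, instead of 0. No reported result for the members as a list reversed its direction under the 14 alternatives, of which 6 changed the scaling or the background correction. The number of members above 0 ranged from 51 of 77 upward. The small minus large difference of medians, which scalings by 1 constant per array cannot change, ranged from -0.04 to -0.002.

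No paired analysis was possible because each age has 1 array and the labels give no replicate numbers. No array could be left out for the same reason. Signal over background limits dim members: Mrpl35 was not measured, and single spots carry a model error of about 0.20 on the log2 scale.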
